A study of Mus musculus with 54 samples.

Results

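The 35 genes described here encode the enzymes and transporters of glycolysis, the kinases that hold pyruvate back from mitochondria, and the sensors and targets of the hypoxia response. They were chosen by symbol from the deposited table of read counts, where all 35 were found among 24421 genes, and all 35 passed the filter on low counts that left 14320 genes for testing. The rule uses symbols only, though the list was drawn up with earlier results of these data known.

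Haematopoietic stem cells (HSC) came from bone marrow of Fgd5 reporter mice on a C57BL/6 background, whose HSC carry green ZsGreen fluorescence, and were sorted by SLAM-LSK surface gating and by that fluorescence. All groups share the reporter allele, and the sort takes cells by surface proteins and reporter, not by function. Mice received dmPGE2, a long-acting dimethyl analogue of prostaglandin E2, or its ethanol vehicle in saline under the skin 30 min before 8.53 Gy, given as the dose lethal to 50% of mice, or before no irradiation. The labels give 35 µg of dmPGE2 per mouse, while the stated 3.5 µL of a 0.1 mg/ml stock would hold 0.35 µg. The groups were unirradiated vehicle mice (15 libraries of 1 h and 24 h together), unirradiated dmPGE2 mice at 1 h (7), irradiated vehicle mice at 1 h (8), irradiated dmPGE2 mice at 1 h (8), and irradiated vehicle (8) and irradiated dmPGE2 mice at 24 h (8). Both sexes were used, and the mice's age is not stated in the labels. Nothing in the labels ties a library to one animal, so p-values may measure a spread that is partly technical.

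Glycolysis splits glucose to pyruvate in the cytosol, and lactate dehydrogenase can then turn pyruvate into lactate. Pyruvate dehydrogenase kinases switch off the enzyme that would feed pyruvate to mitochondria. In low oxygen the prolyl hydroxylases slow down, the factor HIF-1α is no longer marked for removal, and it switches on many of these genes. Quiescent HSC are known for reliance on glycolysis and for HIF-1α activity in the poorly oxygenated marrow.

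Total counts ran from 15049364 to 26217041 per library, and levels are in CPM, counts scaled to library size after TMM normalization. The radiation-induced cell cycle inhibitor Cdkn1a had group medians of 6.81 CPM in unirradiated vehicle HSC, 112 in unirradiated dmPGE2 HSC and 303 to 685 in the irradiated groups. Defining HSC genes were present throughout, with medians over all 54 libraries of 1346 CPM for Kit and 85.7 for Fgd5, and the B cell factors Pax5 and Ebf1 had medians of 0. Among other B cell markers, Cd79b was present in every library at a median of 57.8 CPM (38.4 to 96.1), and Cd79a had a median of 0.196. The summed neutrophil markers (8 genes, Mpo among them) varied widely, from 128 to 1396 CPM in unirradiated vehicle HSC and from 8.77 to 455 in irradiated vehicle HSC at 24 h. In bulk libraries, fewer cells of a type and less RNA per cell cannot be told apart.

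The unirradiated vehicle libraries carry 2 limits. Of the 15, 14 form 7 pairs whose column names hold the same tag with a low or a high S number (S42 to S70, S79 to S85), and names do not say which is 1 h and which 24 h. Both libraries of each pair had the same sex by Xist and Y-linked counts in 7 of 7 pairs, whereas over the 15 libraries 5 were female by counts and 7 by the labels. Counts of paired libraries differed far beyond sampling noise, with a chi-square per degree of freedom of 18.7 to 42.9, and they were kept as separate libraries. That value cannot tell separate animals from separate libraries of the same animal. In 7 of 7 pairs the later library correlated best with the earlier library of its own tag. Over genes above 5 CPM, same-tag correlations of deviations from group means were 0.44 to 0.74. Whether the 15 libraries are 15 animals cannot be told, and p-values against this group measure the spread between libraries. None of the 35 genes passed edgeR's test between the 7 later and the 8 earlier columns (lowest adjusted p = 0.119, Aldoa), where 4 had an unadjusted p below 0.05 and 1.25% of all genes tested were called higher and 1.4% lower in the later columns. DESeq2 was not run on that contrast.

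In unirradiated vehicle HSC the most abundant members per length were Ldha, which makes lactate, at a median of 1009 CPM per kilobase of exon, then Gapdh at 694, Aldoa at 475, Pkm at 455 and Tpi1 at 421. Among parallel enzymes, Hk1 stood at 107 CPM per kilobase against 5.25 for Hk2, and Pdk3 at 94.8 against 33.6 for Pdk2 and 31.6 for Pdk1. Vegfa, at 2.43, and Epas1, which encodes HIF-2α, at 0.347, were near the bottom. Eno1 is uncertain: 11 of its 12 exons are listed with the same ends for Eno1b, and 92.8% of its exon bases are shared, with 62 to 221 counts per library left to Eno1. Aldoa, Gapdh, Pgk1, Pgam1, Tpi1 and Ldha have pseudogene copies, and no source used here gives how reads that fit several places were counted.

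The promoters of 5 members are shown because these genes passed the test with dmPGE2 in irradiated HSC at 1 h, described below. The sixth, Slc2a3, had no window in the table. Prostaglandin E2 receptors can signal through cyclic AMP, and HIF binds a short core motif. Each line gives the 250 bases before the most upstream start in RefSeq (GRCm38.p6, the build of mm10, read along the gene's strand), for Hk2 chr6:82774455-82774704 (minus strand), Egln3 chr12:54203875-54204124 (minus), Ldha chr7:46845554-46845803 (plus), Vegfa chr17:46032378-46032627 (minus) and Cited2 chr10:17722978-17723227 (plus). Capitals mark the HIF core letters ACGTG or GCGTG and the cyclic AMP response element core TGACG, each searched on both strands.
Hk2: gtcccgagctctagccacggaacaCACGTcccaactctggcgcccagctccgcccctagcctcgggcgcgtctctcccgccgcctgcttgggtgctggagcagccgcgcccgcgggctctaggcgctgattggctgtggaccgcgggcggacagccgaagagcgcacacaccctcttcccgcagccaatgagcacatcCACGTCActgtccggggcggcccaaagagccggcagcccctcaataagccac
Egln3: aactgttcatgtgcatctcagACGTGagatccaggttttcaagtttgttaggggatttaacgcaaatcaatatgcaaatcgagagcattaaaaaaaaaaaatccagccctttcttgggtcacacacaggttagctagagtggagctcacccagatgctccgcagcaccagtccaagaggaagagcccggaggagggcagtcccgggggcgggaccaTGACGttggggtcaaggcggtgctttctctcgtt
Ldha: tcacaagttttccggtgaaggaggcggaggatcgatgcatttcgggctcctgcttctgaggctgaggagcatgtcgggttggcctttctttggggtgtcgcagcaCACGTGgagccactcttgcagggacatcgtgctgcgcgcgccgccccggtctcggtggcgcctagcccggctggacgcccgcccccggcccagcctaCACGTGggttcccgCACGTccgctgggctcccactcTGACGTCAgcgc
Vegfa: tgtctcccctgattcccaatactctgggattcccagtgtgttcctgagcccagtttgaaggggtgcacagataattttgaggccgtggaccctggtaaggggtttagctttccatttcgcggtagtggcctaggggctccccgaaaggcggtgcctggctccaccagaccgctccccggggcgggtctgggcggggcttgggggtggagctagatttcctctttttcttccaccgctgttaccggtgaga
Cited2: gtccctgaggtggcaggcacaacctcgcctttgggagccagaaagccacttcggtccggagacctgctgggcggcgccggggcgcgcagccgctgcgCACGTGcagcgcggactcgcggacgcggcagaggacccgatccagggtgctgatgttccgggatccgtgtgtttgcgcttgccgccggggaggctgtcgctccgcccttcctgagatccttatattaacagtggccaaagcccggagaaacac
The Hk2 window held 2 HIF cores and 1 TGACG core, which overlaps the HIF core nearer the start. Egln3 held 1 HIF core near the far end of the window and 1 TGACG core near the start. Ldha held 5 HIF matches, some of them the palindrome CACGTG counted on both strands, and the full cyclic AMP element TGACGTCA. Cited2 held 1 CACGTG and no TGACG, and the Vegfa window shown held none of these letters. A second RefSeq window of Vegfa, before a start within the gene (chr17:46025164-46025413) and not printed, held 2 HIF cores and 1 TGACG. Over all 32851 promoter windows of this length, 38.6% held ACGTG or GCGTG, 17.8% held TGACG and 1.55% held TGACGTCA. RefSeq windows were found for 32 of the 35 members, and 80.9% of their 47 windows held a HIF core and 19.1% TGACG. These are descriptions of letters, and several members were put in such lists for being HIF targets.

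One hour after irradiation, dmPGE2 raised a small set of hypoxia and glucose-entry genes and lowered Cited2, while most glycolytic enzymes did not pass the test. Of the 35 members, 5 were called higher (Egln3, Hk2, Vegfa, Slc2a3, Ldha) and 1 lower (Cited2) at an adjusted p below 0.05, where 7.04% of all genes tested were called higher and 7.77% lower. The median log2 fold change was 0.04 over the members and 0.01 over all genes tested. Tests are edgeR's quasi-likelihood test with Benjamini-Hochberg adjustment over all 14320 genes, and fold changes below carry their standard errors (SE).

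For glucose entry, Slc2a3 encodes the high-affinity transporter GLUT3. Slc2a3 ran from 308 to 450 CPM in irradiated vehicle HSC (median 366) and from 323 to 697 with dmPGE2 (median 610), a log2 fold change of 0.61 with an SE of 0.14 (adjusted p = 0.000974). Of the 8 dmPGE2 libraries, 7 were above every vehicle library. Hk2 (chr6:82725027-82774454) encodes the inducible hexokinase that traps glucose as its phosphate. It ran from 37.3 to 83 CPM with vehicle (median 62.7) and from 210 to 340 with dmPGE2 (median 257), so the groups did not overlap, with a log2 fold change of 2.06 with an SE of 0.25 (adjusted p = 4.47e-09). Its constitutive partner Hk1 had medians of 469 and 481 CPM and a log2 difference of -0.04 that did not pass. At the other end of the pathway, Ldha rose slightly, from a median of 1800 CPM (1642 to 2322) to 2112 (1794 to 2842), a log2 fold change of 0.29 with an SE of 0.09 (adjusted p = 0.0145). The groups overlapped widely, and Ldha's adjusted p was 0.0551 when only these groups were fitted. That edgeR fit added Pfkfb3 (0.79, adjusted p = 0.0261), Slc2a1 (0.30, adjusted p = 0.0362) and Slc16a3 (0.35, adjusted p = 0.0309), all higher. It called 7 members higher and 1 lower, and 2268 of 13109 genes in all, against 2121 of 14320 in the reported fit.

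Of the oxygen sensors and their targets, Egln3 (chr12:54178981-54203874) encodes the prolyl hydroxylase PHD3, itself a HIF target. Its level was 13.2 to 82.3 CPM with vehicle (median 16.6) and 76.5 to 166 with dmPGE2 (median 128), a log2 fold change of 2.33 with an SE of 0.25 (adjusted p = 1.07e-10). A single vehicle library, the third, stood at 82.3 CPM where the next highest was 21.4. Without that library the log2 fold change was 2.89 (SE 0.18). Vegfa (chr17:46016993-46032377), the vascular growth factor, ran from 34.2 to 78.4 CPM with vehicle (median 46.6) and from 143 to 221 with dmPGE2 (median 189), a log2 fold change of 1.82 with an SE of 0.22 (adjusted p = 5.62e-09). The groups did not overlap. Cited2 (chr10:17723228-17725674) encodes a protein that competes with HIF-1α for the coactivators CBP and p300 and is needed to maintain HSC. It stood at 277 to 403 CPM with vehicle (median 356) and at 31.0 to 77.3 with dmPGE2 (median 49.9), and fell, with a log2 change of -2.72 (SE 0.14, adjusted p = 4.96e-22). The highest dmPGE2 library was below the lowest vehicle library. Hif1a itself did not pass, with medians of 129 and 128 CPM.

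**Figure D1:**
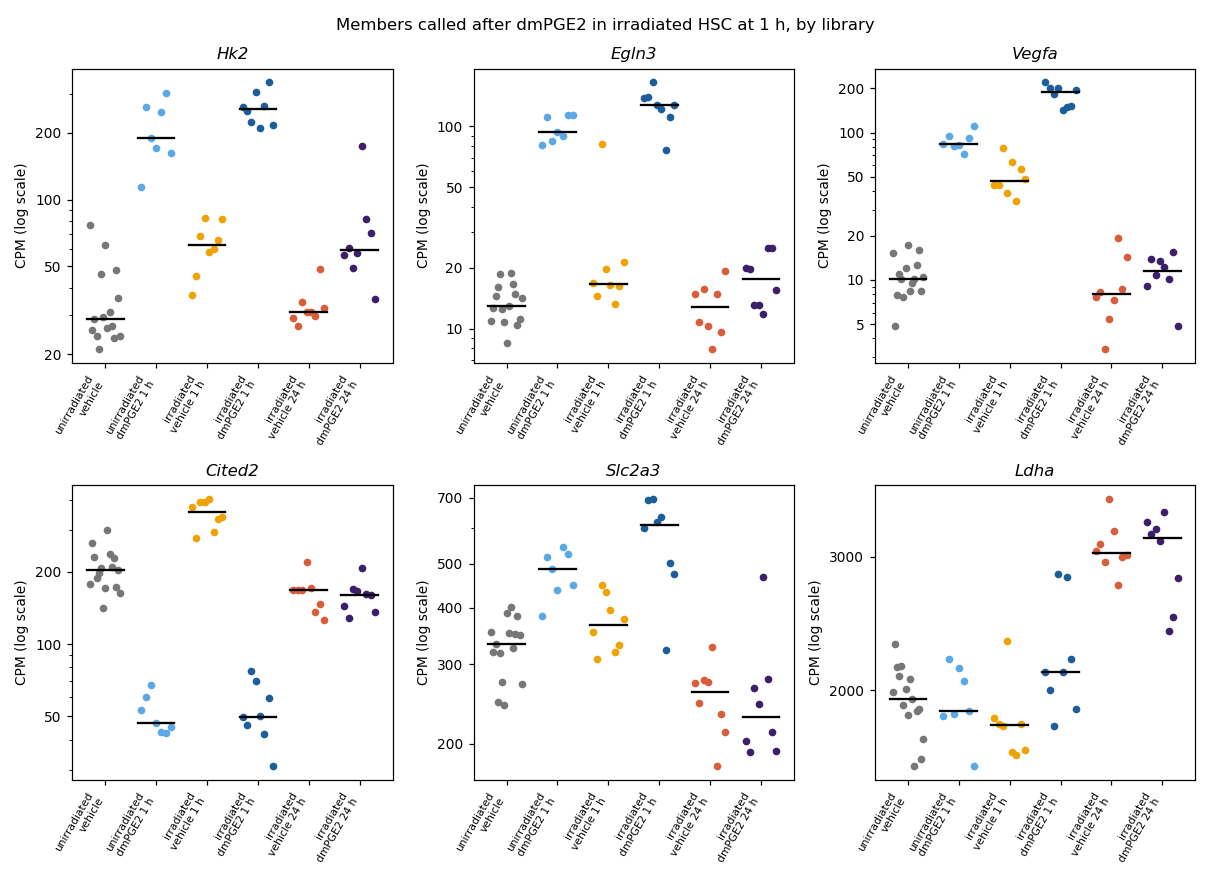
Scaled counts (CPM, log scale) of 6 members in each of the 54 libraries, by group; points are libraries and bars are group medians. Hk2, Egln3 and Vegfa stand high in both dmPGE2 groups at 1 h, where Cited2 has medians of 47 and 49.9 CPM against 205 in unirradiated vehicle HSC and 356 after radiation.

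Without radiation the same injection gave 7 members higher and 1 lower at 1 h, against 5.28% and 5.82% of all genes tested. Vegfa, Egln3 and Hk2 had the largest increases, Slc2a3, Slc16a3, Slc2a1 and Hif1a rose by less, and Cited2 fell. The median log2 fold change was -0.01 over the members and 0.00 over all genes. Vegfa ran from 4.84 to 17.2 CPM in the 15 unirradiated vehicle libraries (median 10.1) and from 72 to 110 in the 7 dmPGE2 libraries (median 84.2), a log2 fold change of 3.03 with an SE of 0.19 (adjusted p = 1.19e-18). Egln3 rose from a median of 12.9 CPM (8.54 to 18.9) to 94.2 (81.1 to 115), by 2.86 (SE 0.21, adjusted p = 2.69e-16). Hk2 rose from 28.9 CPM (21.1 to 76.6) to 189 (114 to 303), by 2.55 (SE 0.21, adjusted p = 2.83e-14). For these 3 genes every dmPGE2 library was above every vehicle library. Cited2 ran from 142 to 300 CPM with vehicle (median 205) and from 42.4 to 67.7 with dmPGE2 (median 47), a change of -2.01 (SE 0.14, adjusted p = 3.67e-17), again without overlap.

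The smaller changes concerned transport and the HIF subunit, and the groups overlapped for all 4 genes, Slc2a3, Slc2a1, Slc16a3 and Hif1a. Slc2a3 had medians of 332 and 487 CPM and a log2 fold change of 0.55 (SE 0.12), whose adjusted p of 0.00117 became 0.0534 with only the 8 earlier baseline columns. Slc2a1, which encodes the widespread glucose transporter GLUT1, had medians of 95.3 and 138 CPM, a log2 fold change of 0.42 (SE 0.14) and an adjusted p of 0.0421 that became 0.102 when baseline columns of 1 tag were summed. Slc16a3 encodes the lactate exporter MCT4, which stood at a median of 9.53 CPM (5.58 to 13.1) with vehicle and 12.6 (9.14 to 19.0) with dmPGE2, a log2 fold change of 0.52 with an SE of 0.14 (adjusted p = 0.00887). Hif1a rose from 99.7 CPM (75.5 to 114) to 127 (114 to 137), by 0.36 (SE 0.07, adjusted p = 0.000206). Pfkfb3, the bifunctional enzyme that makes the activator of phosphofructokinase, had medians of 29.1 and 71.6 CPM, a log2 difference of 1.10 (SE 0.39) and an adjusted p of 0.0580. That test shares its spread with all 54 libraries, and with only these groups fitted the same gene had an SE of 0.20 and an adjusted p of 0.000327. With tags as a replicate block, Pfkfb3 (adjusted p = 0.0052), Pdk1 (0.27, adjusted p = 0.0163) and Ankrd37 (-0.72, adjusted p = 0.0376) were called as well.

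Radiation alone at 1 h gave 7 members higher and 1 lower, against 8.65% and 7.31% of all genes tested. Vegfa led, Egln3, Hk2 and Cited2 rose by less than 1 on the log2 scale, Slc16a3, Hif1a and Slc2a1 by less than 0.5, and Ankrd37 fell. The median log2 fold change was 0.03 over members and 0.00 over all genes. Vegfa's 8 irradiated vehicle libraries (34.2 to 78.4 CPM) all lay above the 15 unirradiated ones, a log2 fold change of 2.25 with an SE of 0.19 (adjusted p = 1.1e-14). Cited2 rose from a median of 205 to 356 CPM, by 0.76 (SE 0.12, adjusted p = 8.02e-07), the opposite direction to dmPGE2, and its ranges overlapped between 277 and 300 CPM. Hk2 rose from 28.9 to 62.7 CPM by 0.82 (SE 0.20, adjusted p = 0.00279), with overlapping ranges. The call on Egln3, 0.88 (SE 0.20, adjusted p = 0.00114), rested on the third irradiated vehicle library: without it the value was 0.32 and the adjusted p 0.156.

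Hif1a rose after radiation from a median of 99.7 to 129 CPM, by 0.39 (SE 0.07, adjusted p = 2.5e-05). Slc16a3 changed by 0.41 (adjusted p = 0.0316) and Slc2a1 by 0.38 (adjusted p = 0.0467), and with baseline columns of 1 tag summed the adjusted p-values were 0.0563 and 0.115. Ankrd37, a small ankyrin repeat protein and HIF target, was low throughout, at a median of 2.77 CPM (1.34 to 6.55) before and 1.49 (1.07 to 2.24) after radiation, a change of -1.02 (SE 0.28, adjusted p = 0.00592). With only these groups fitted, 14 members in place of 8 were called: Pfkfb3 was then higher by 0.93 (adjusted p = 0.0017) and Aldoc lower by 0.46, and Gapdh, Pgam1, Tpi1 and P4ha1 also passed. With tags as a replicate block 12 were called, adding Pfkfb3 (adjusted p = 0.0176), Tpi1 (0.0353), Gapdh (0.0304) and Pgam1 (0.0452), the last 3 lower. With only the 8 earlier baseline columns, 5 were called. Of all genes tested, these fits called 2868 of 13475, 2811 of 14320 and 1244 of 14208 in that order, against 2285 of 14320 in the reported fit.

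Among HSC given dmPGE2, few members differed with radiation at 1 h. Irradiated against unirradiated dmPGE2 HSC gave 1 member higher and none lower by edgeR, against 0.356% and 0.0209% of all genes tested, and DESeq2 gave the same counts. At an unadjusted p below 0.05 these numbers were 3 and 0. The member was Vegfa, with medians of 84.2 and 189 CPM and no overlap between groups, a log2 fold change of 1.03 with an SE of 0.23 (adjusted p = 0.0104). The test of whether the dmPGE2 response differs with radiation (irradiated minus unirradiated response) called 3 members lower and none higher, against 1.8% and 1.17% of all genes tested, and 3 and 3 had an unadjusted p below 0.05; DESeq2 also gave 3 and 0. Vegfa's log2 response was smaller after radiation by 1.21, with an interaction of -1.21 (SE 0.29, adjusted p = 0.00702), and its irradiated vehicle level was the higher of the 2 starting levels (medians 46.6 and 10.1 CPM). Cited2's fall was larger after radiation, with an interaction of -0.71 (SE 0.18, adjusted p = 0.0155), and its levels under dmPGE2 were close, with medians of 47 and 49.9 CPM. Hif1a had an interaction of -0.44 (SE 0.11, adjusted p = 0.00974), and its medians were 127, 129 and 128 CPM with dmPGE2, with radiation and with both, against 99.7 with neither. With only the 8 earlier baseline columns, Vegfa alone of these 3 was called. Of all genes tested, 288 of 14208 then passed the interaction test, against 426 of 14320 in the reported fit. These 1 h comparisons share libraries, so their values are given side by side only.

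**Figure D2:**
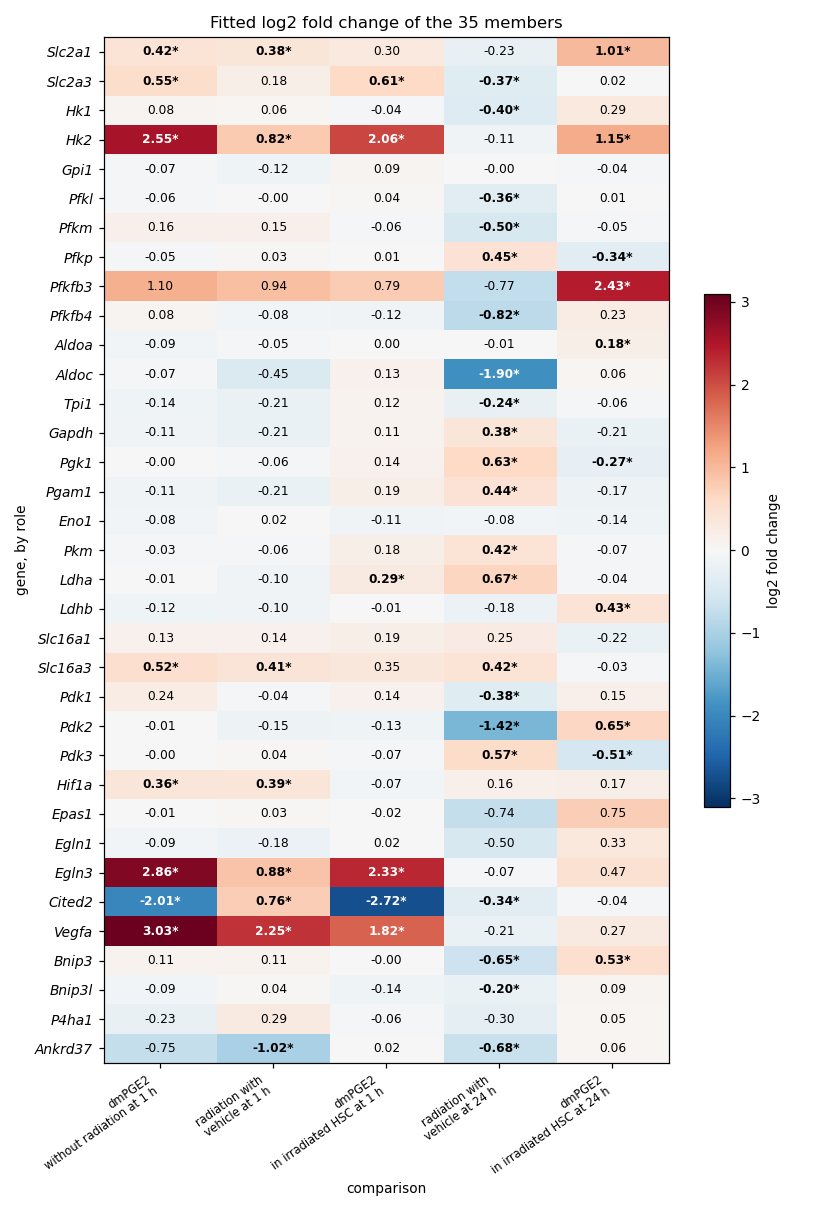
Fitted log2 fold changes of the 35 members (rows, by role) in 5 comparisons (columns); bold values with an asterisk passed an adjusted p below 0.05. Changes past 1 on the log2 scale at 1 h lie in Hk2, Egln3, Cited2, Vegfa and Ankrd37 among called genes, while the 24 h radiation column holds calls in both directions along the enzymes.

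At 24 h, irradiated vehicle HSC differed from unirradiated vehicle HSC in members of both directions. The 2 groups share no tag: these irradiated libraries carry tags 6-16, 6-28, 6-30 and 7-6 and S86 to S100. The unirradiated ones carry other tags and S42 to S85. Radiation at 24 h therefore cannot be told apart from tag set or S number in this contrast. Of the 35 members 8 were higher and 13 lower, where 23.3% of all genes tested were called higher and 26.5% lower, so the share higher was near the background. The median log2 fold change was -0.21 over the members and -0.06 over all genes. The 8 higher were Gapdh, Pgk1, Pgam1, Pkm, Ldha, Pfkp, Pdk3 and Slc16a3. Aldoc, Pdk2, Pfkfb4, Pfkm, Pfkl, Hk1 and Tpi1 were among the 13 lower, and Eno1 (-0.08) and Ldhb (-0.18) did not pass.

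Upstream, Hk1 fell from a median of 484 CPM (352 to 685) to 371 (296 to 410), a log2 change of -0.40 (SE 0.12, adjusted p = 0.00355), and Slc2a3 fell from 332 CPM to 260, a change of -0.37 (SE 0.12). The 3 phosphofructokinase genes, which encode subunits of the committing step, moved apart. Pfkp, the platelet type, rose from 153 CPM (123 to 170) to 205 (189 to 223), by 0.45 (SE 0.06, adjusted p = 1.3e-08), with no overlap. Pfkm, the muscle type, went from 82.1 CPM (68.3 to 99.8) to 62.2 (40.6 to 69.3), a change of -0.50 (SE 0.08, adjusted p = 3.43e-07), and Pfkl, the liver type, from 452 CPM to 341, a change of -0.36 (SE 0.09). In both of these the ranges overlapped. Pfkfb4, a partner of Pfkfb3, changed by -0.82 (SE 0.21), from 16.5 CPM to 8.74.

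The aldolases also differed. Aldoc, the brain-type aldolase, dropped from 59.4 CPM (37.6 to 89.5) to 16.4 (8.72 to 24.4), a change of -1.90 (SE 0.18, adjusted p = 3.75e-13) with no overlap, while Aldoa had medians of 867 and 843 CPM and did not pass. Pgk1 (chrX:106187100-106203699), phosphoglycerate kinase, rose from 126 CPM (118 to 143) to 200 (176 to 224), by 0.63 (SE 0.08, adjusted p = 1.74e-09). Ldha (chr7:46845804-46855627) rose from 1947 CPM (1587 to 2304) to 3031 (2750 to 3576), by 0.67 (SE 0.07, adjusted p = 8.37e-11). In these 2 genes every irradiated library was above every unirradiated one, as in Pgam1 (77.4 to 105 CPM, by 0.44) and Pkm (1183 to 1567 CPM, by 0.42). Gapdh rose by 0.38 (SE 0.07), its ranges touching between 1191 and 1198 CPM. Tpi1 changed by -0.24 (SE 0.08, adjusted p = 0.0148), which became 0.0524 with baseline columns of 1 tag summed.

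Among the kinases that inhibit pyruvate dehydrogenase, the isoforms diverged. Pdk2 went from 75.9 CPM (62.6 to 94.5) to 28.4 (22.8 to 34.5), a change of -1.42 (SE 0.15, adjusted p = 3.19e-11), and Pdk3 from 190 CPM (170 to 230) to 288 (266 to 316), a change of 0.57 (SE 0.07, adjusted p = 4.9e-10). Neither gene's groups overlapped. Pdk1, a hypoxia-inducible isoform, changed by -0.38 (SE 0.08, adjusted p = 0.000173), from 164 CPM to 127. Of the hypoxia targets, Bnip3, a mitophagy receptor, fell from 56.8 CPM (46.8 to 67.9) to 35.5 (31.7 to 40.7), by 0.65 (SE 0.11, adjusted p = 2.54e-06), without overlap. Cited2 changed by -0.34, Bnip3l by -0.20 and Ankrd37 by -0.68, and the last 2 lost the call with summed baseline columns (adjusted p = 0.104 and 0.0782). With only the 7 later baseline columns Cited2 had an adjusted p of 0.0921 and Slc2a3 of 0.225. Vegfa, Egln3 and Hk2, called higher at 1 h, had medians of 8.02, 12.8 and 31.0 CPM at 24 h, against 10.1, 12.9 and 28.9 in unirradiated vehicle HSC, and did not pass. Summed megakaryocyte markers were at a median of 314 CPM in irradiated vehicle HSC at 24 h (217 to 756) against 114 in unirradiated vehicle HSC (85.7 to 188), neutrophil markers at 22.0 against 391 and erythroid markers at 3.18 against 86.8. Summed HSC markers were lower too, at 2114 to 3008 CPM against 3106 to 4785, as were endothelial markers, at 72.7 to 136 against 142 to 212, and neither pair of ranges overlapped. Among the endothelial genes, medians over all libraries were 119 CPM for Tek and 39.3 for Emcn, but 8.49 for Kdr and 0.161 for Cdh5. The part of these markers in the results was not tested.

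**Figure D3:**
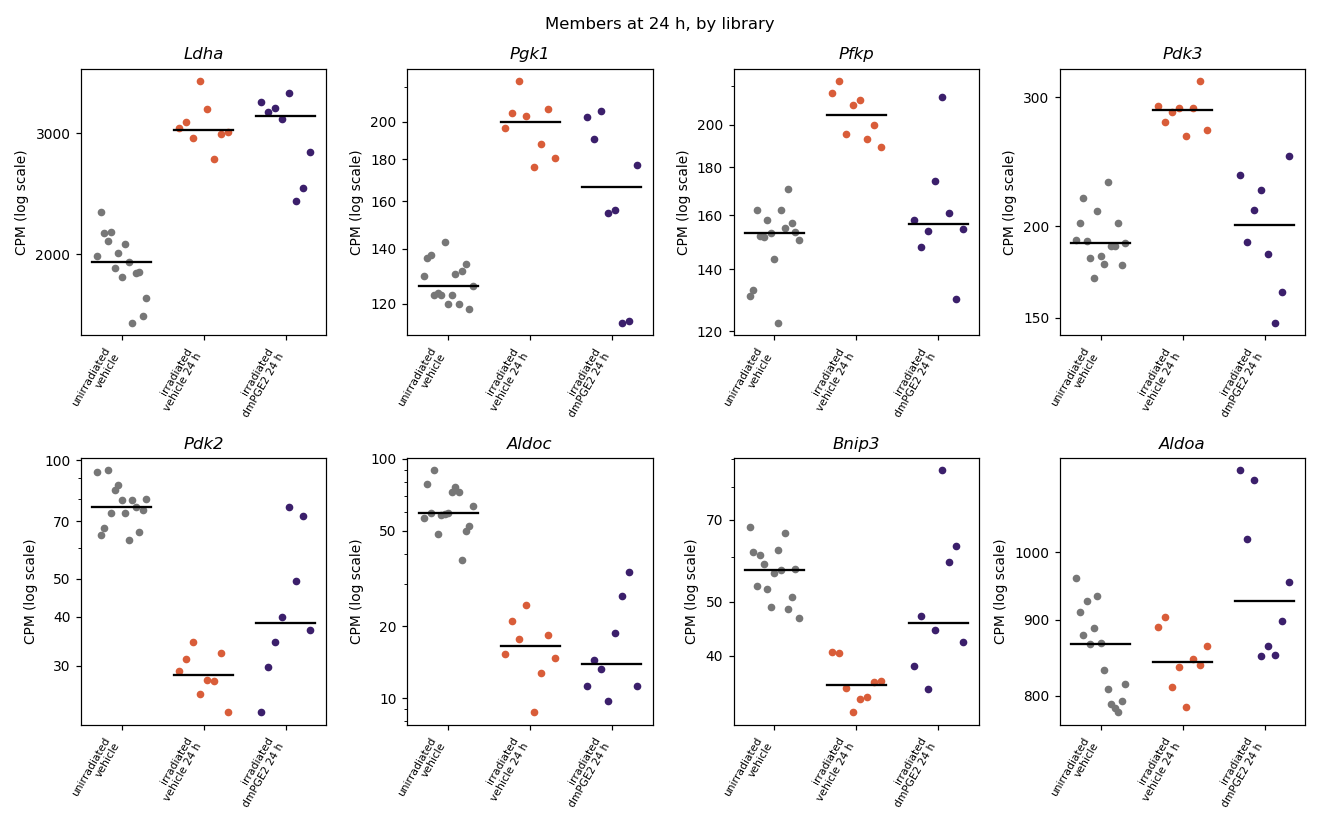
Scaled counts (CPM, log scale) of 8 members in the 15 unirradiated vehicle, 8 irradiated vehicle and 8 irradiated dmPGE2 libraries of 24 h; points are libraries and bars are medians. Ldha, Pgk1, Pfkp and Pdk3 are higher, and Pdk2, Aldoc and Bnip3 lower, in every irradiated vehicle library than in every unirradiated one, and the dmPGE2 libraries spread widely.

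Before irradiation, dmPGE2 left irradiated HSC at 24 h with 7 members higher and 3 lower than vehicle, against 12.4% and 11.5% of all genes tested. Pfkfb3, Hk2 and Slc2a1 had the largest increases, Pdk2, Bnip3, Ldhb and Aldoa rose by less, and Pdk3, Pfkp and Pgk1 fell. The median log2 fold change was 0.06 over the members and 0.03 over all genes. Much of this rests on libraries 5, 6 and 7 of the 8: these hold the 3 highest values of the group in 9 members and the 3 lowest in 3. The share of all genes with that order was not counted. These libraries also stood apart over all genes tested. On principal component PC2 they lay at -71.7, -39.3 and -47.3, against -22.4 to 1.37 in the other dmPGE2 libraries of 24 h. With those 3 left out, 5 members were called in place of 10: Aldoa, Ldhb and Slc2a1 higher and Pdk3 and Pfkp lower. Of all genes tested, 1123 of 14539 were then called, against 3421 of 14320 with all 8 libraries. Libraries 5, 6 and 7 are males by the column names, as is library 8, which does not stand with them.

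Pfkfb3 (chr2:11471431-11553929) shows the dependence most clearly. Its dmPGE2 libraries 1 to 8 held 16.1, 18.03, 43.97, 16.5, 472, 67.5, 144 and 17.2 CPM, against 9.67 to 36.5 with vehicle (median 16.5). The log2 fold change was 2.43 (SE 0.47, adjusted p = 0.000143) with all 8 and 0.28 (adjusted p = 0.653) without libraries 5, 6 and 7. For Slc2a1 the dmPGE2 values were 121, 140, 148, 131, 335, 237, 260 and 95.7 CPM against 74.9 to 105 with vehicle (median 91.4). Here 7 of 8 dmPGE2 libraries were above every vehicle library, and the log2 fold change of 1.01 (SE 0.16, adjusted p = 6.96e-06) became 0.48 (adjusted p = 0.0166) without the 3 and 0.43 (adjusted p = 0.0581) without library 3 as well. Hk2 held 56.2, 60.5, 49.2, 57.4, 174, 81.8, 70.7 and 35.7 CPM against 26.8 to 48.5 (median 31.0), a log2 fold change of 1.15 with an SE of 0.24 (adjusted p = 0.000397) that became 0.66 (adjusted p = 0.0754). It too was above every vehicle library in 7 of 8. Pdk2 held 22.9, 29.8, 34.5, 40.05, 76, 49.3, 72.1 and 36.9 CPM against 22.8 to 34.5, and its log2 fold change of 0.65 (SE 0.16, adjusted p = 0.00288) became 0.19 (adjusted p = 0.510). Bnip3, at 34.9 to 85.8 CPM (median 45.8) against 31.7 to 40.7, changed by 0.53 (SE 0.12, adjusted p = 0.00134), which became 0.21 (adjusted p = 0.287).

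**Figure D4:**
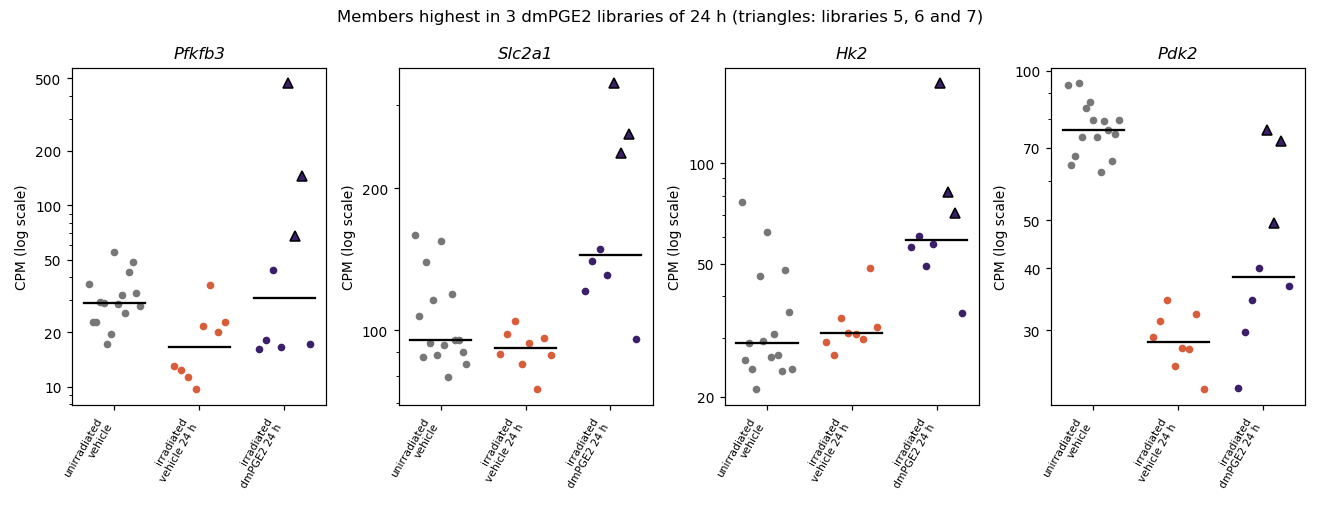
Scaled counts (CPM, log scale) of Pfkfb3, Slc2a1, Hk2 and Pdk2 in unirradiated vehicle, irradiated vehicle and irradiated dmPGE2 libraries of 24 h; triangles are dmPGE2 libraries 5, 6 and 7, and bars are medians of all libraries of a group. The triangles are the 3 highest dmPGE2 libraries in each panel, reaching 472 CPM for Pfkfb3.

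The calls that remained without those libraries were smaller. Pdk3 was at 148 to 250 CPM with dmPGE2 (median 201) against 266 to 316 with vehicle (median 288), with no overlap, a change of -0.51 (SE 0.08, adjusted p = 3.18e-06) that was -0.37 without libraries 5, 6 and 7. Unirradiated vehicle HSC had 170 to 230 CPM of Pdk3. Pfkp fell from a median of 205 CPM to 156 (130 to 214), by 0.34 (SE 0.07, adjusted p = 0.000263), with 7 of 8 dmPGE2 libraries below every vehicle library, and the value was -0.38 without the 3. Ldhb, the lactate dehydrogenase subunit that favours pyruvate, went from 167 CPM (144 to 213) to 228 (146 to 313), a change of 0.43 (SE 0.09, adjusted p = 0.000398). Aldoa changed by 0.18 (SE 0.06, adjusted p = 0.0234), from 843 to 927 CPM. Pgk1 changed by -0.27 (adjusted p = 0.0258), and by -0.09 (adjusted p = 0.599) without the 3 libraries. Ldha, Pkm and Gapdh did not pass, with dmPGE2 medians of 3179, 1520 and 1203 CPM against 3031, 1567 and 1292.

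Other cell type markers moved with these groups at 24 h. The summed HSC markers (8 genes) were at 2724 to 4413 CPM with dmPGE2 (median 3223) and 2114 to 3008 with vehicle (median 2552), and libraries 5, 6 and 7 had the 3 highest sums, at 3609, 4413 and 4329 CPM. Megakaryocyte markers were at a median of 121 CPM with dmPGE2 against 314, neutrophil markers at 203 against 22.0 and erythroid markers at 22.8 against 3.18. Endothelial markers (4 genes) were also highest there, at 219, 204 and 188 CPM against 116 to 142 in the other 5 dmPGE2 libraries. That sum is mostly Tek and Emcn, since Cdh5 had a median of 0.161 CPM over all 54 libraries and at most 1.36. Neutrophil sums in libraries 5, 6 and 7 were 102, 343 and 51.1 CPM, within the range of the other dmPGE2 libraries (11.5 to 613). Stromal markers reached 214 CPM in dmPGE2 library 1, where Col1a1 was at 196, and stayed at 20.1 or below in libraries 5, 6 and 7. Cdkn1a in those 3 was 461, 682 and 810 CPM, against 605 to 862 in irradiated vehicle HSC at 24 h. The part of these markers in the results was not tested.

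The dmPGE2 response itself was compared between times (24 h minus 1 h), with 6 members higher and 10 lower against 12.9% and 12.6% of all genes tested. The early responders had a smaller response at 24 h: the difference was -1.86 (SE 0.34) for Egln3, -1.55 (SE 0.31) for Vegfa, -0.90 (SE 0.34, adjusted p = 0.0416) for Hk2 and -0.59 (SE 0.20) for Slc2a3, and 2.68 (SE 0.19, adjusted p = 4.23e-16) for Cited2. At 24 h Cited2 had medians of 168 CPM with vehicle and 161 with dmPGE2. The other higher differences were Pfkfb3 at 1.64, Pdk2 at 0.78, Slc2a1 at 0.71, Bnip3 at 0.53 and Ldhb at 0.44, and the other lower ones Pdk3, Pgk1, Pgam1, Pfkp, Ldha and Gapdh at -0.44 to -0.32. Without dmPGE2 libraries 5, 6 and 7, the number called went from 16 to 9, and Pfkfb3's difference turned to -0.52 (adjusted p = 0.422). Over all genes tested the number called went from 3641 to 2401. Without the third irradiated vehicle library of 1 h, 11 members were called, with Hk2 at an adjusted p of 0.0529, and 3412 of all genes tested.

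Egln1, which encodes PHD2, the main oxygen sensor of the pathway, passed no test between groups but varied widely between libraries. A cut was placed at the widest gap of its sorted values on a log scale, which was 1.43-fold. The empty band therefore follows from how the cut was chosen. Below it lay 6.15 to 19.2 CPM (17 libraries, called low here) and above it 27.4 to 60.3 CPM (37 libraries). Every group held both: 3 of 15 unirradiated vehicle libraries were low, 2 of 7 unirradiated dmPGE2, 2 of 8 irradiated vehicle and 3 of 8 irradiated dmPGE2 at 1 h, and 3 of 8 and 4 of 8 at 24 h. By sex 7 of 25 female and 10 of 29 male libraries were low. The low libraries had 15049364 to 25278219 total counts. In 3 of the 7 baseline pairs of 1 tag, one library was low and the other high, with ratios of 3.06 to 4.53.

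**Figure D5:**
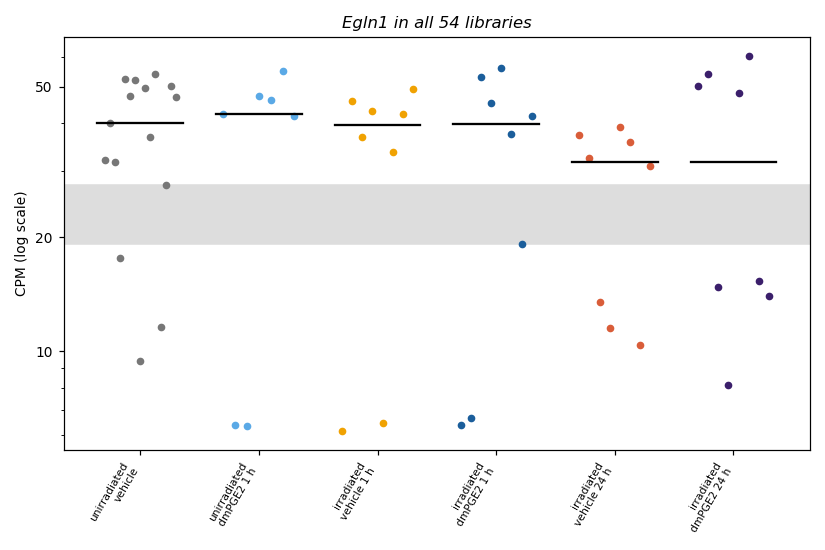
Scaled counts (CPM, log scale) of Egln1 in each of the 54 libraries by group, with bars at group medians. The grey band, from 19.2 to 27.4 CPM, is the widest gap of the sorted values on a log scale. Libraries of every group lie on both sides of the band.

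Beside Egln1, 5 members passed no test in any of the 8 comparisons: Gpi1, the glucose phosphate isomerase (group medians 461 to 521 CPM), Eno1, Slc16a1, which encodes the lactate transporter MCT1 (145 to 170 CPM), Epas1 (0.909 to 2.30 CPM) and P4ha1, a collagen prolyl hydroxylase subunit (51.9 to 74.2 CPM). The lowest adjusted p among these 6 was 0.101, for P4ha1 after radiation at 24 h. With only those groups fitted, P4ha1 passed (log2 fold change -0.30, adjusted p = 0.0201), as did Slc16a1 (0.25, adjusted p = 0.0274).

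Lists of neighbouring genes, none of them members, were read in the same fit. Of all genes tested, dmPGE2 in irradiated HSC gave 7.04% higher and 7.77% lower at 1 h, and 12.4% and 11.5% at 24 h. Radiation with vehicle gave 8.65% and 7.31% at 1 h, and 23.3% and 26.5% at 24 h. Of 30 tested genes of the rest of glycolysis and pyruvate handling, dmPGE2 in irradiated HSC gave 1 higher and 3 lower at 1 h and 6 higher and 2 lower at 24 h, and radiation with vehicle 4 and 1 at 1 h and 9 and 6 at 24 h. Pdk4, the fasting-induced pyruvate dehydrogenase kinase, was at a median of 10.8 CPM in irradiated vehicle HSC at 1 h (5.12 to 16.2) and 3.31 with dmPGE2 (0.496 to 5.33), a change of -1.87 (SE 0.39, adjusted p = 0.000374). Pgm2 changed by 0.31 in that contrast and by -0.19 with radiation at 1 h. At 24 h dmPGE2 raised Pgam2, the muscle phosphoglycerate mutase, by 1.56 and Eno2, the neuronal enolase, by 1.29, and lowered Pfkfb1 by a log2 change of -1.24. Both rises lay mostly in dmPGE2 libraries 5, 6 and 7. There Eno2 was at 21.3, 16.4 and 20.7 CPM, against 4.23 to 9.88 in the other dmPGE2 libraries. Pgam2 was low, at 6.38, 2.64 and 3.67 CPM against 0 to 2.40. Fits of neighbouring genes without those libraries are not given. With radiation at 24 h Pgam2 changed by -1.29 and Pfkfb1 by 1.01. Mpc1, a subunit of the mitochondrial pyruvate carrier, changed by 0.55 with radiation at 24 h and by -0.29 with dmPGE2 in those mice. Pklr, the liver and red cell pyruvate kinase, had 1 to 86 counts in each unirradiated vehicle library, and 6 of 8 irradiated vehicle libraries of 24 h were at 0, so no fold is given. Of the 7 pentose phosphate genes the lowest adjusted p with dmPGE2 (irradiated) or radiation at 1 h was 0.0817, for Tkt. With dmPGE2 at 24 h 2 were lower (Tkt -0.30, Taldo1 -0.25), and 3 were higher after radiation at 24 h, Taldo1 among them at 0.35. Both Tkt and Taldo1 were lowest in dmPGE2 libraries 5, 6 and 7. Tkt was there at 375, 311 and 323 CPM, against 385 to 539 in the others. Taldo1 was at 218, 195 and 198 CPM against 251 to 327.

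Of 34 other HIF pathway and target genes tested, dmPGE2 in irradiated HSC gave 4 higher and 6 lower at 1 h. The shares over all genes tested were 7.04% and 7.77%. At 24 h dmPGE2 gave 6 and 1, against 12.4% and 11.5% of all genes. Radiation with vehicle gave 8 and 0 at 1 h, against 8.65% and 7.31%, and 9 and 16 at 24 h, against 23.3% and 26.5%. Hif3a, which encodes an inhibitory HIF subunit, ran from 38.3 to 88 CPM in irradiated vehicle HSC at 1 h (median 49.4) and from 7.72 to 15.2 with dmPGE2 (median 11.7), a change of -2.26 (SE 0.28, adjusted p = 7.56e-09) with no overlap. Hif3a was higher by 0.95 with radiation at 1 h (adjusted p = 0.00161), lower at 24 h, with a change of -1.84, and higher by 1.2 with dmPGE2 at 24 h. Ccng2, an atypical cyclin, changed by -1.24 with dmPGE2 at 1 h, while Bhlhe40, a hypoxia-induced repressor, rose by 0.91, Ndrg1 by 0.59, Car9, a carbonic anhydrase, by 0.42 and Higd1a by 0.31. Ddit4, an inhibitor of mTORC1, went from 15.5 CPM (7.59 to 46.4) to 98.2 (83.7 to 114) after radiation at 1 h, a change of 2.54 (SE 0.29, adjusted p = 6.33e-10) with no overlap. Wsb1, part of a ubiquitin ligase, rose by 1.39 and Bhlhe40 by 0.90 in that contrast. Bhlhe40 ranges overlapped, at 27.8 to 147 CPM after radiation (median 45.6) against 16.6 to 51.8 (median 30.9). They also overlapped with those of dmPGE2 in irradiated HSC at 1 h, 51.7 to 218 CPM (median 70.2). At 24 h radiation raised P4ha2 by 1.95, Car12 by 1.79 and Ddit4 by 1.22. Bhlhe41, a repressor related to Bhlhe40, held 25 to 223 counts in each irradiated vehicle library of 24 h, 5 to 61 in each irradiated dmPGE2 library and 0 to 4 in each unirradiated vehicle library. Lox, a collagen cross-linking oxidase, held 0 to 36 and 1 to 221 counts in irradiated vehicle and dmPGE2 libraries of 24 h, and Adm, the vasodilator adrenomedullin, passed tests on 0 to 20 counts per library, so neither is given a fold.

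Among 8 glucose-sensing regulators, dmPGE2 in irradiated HSC lowered 4 at 1 h and raised 3 at 24 h. Of all genes tested, 7.77% were lower at 1 h and 12.4% higher at 24 h. Radiation with vehicle gave 1 higher and 1 lower at 1 h, against 8.65% and 7.31% of all genes. At 24 h radiation gave 2 higher and 3 lower, against 23.3% and 26.5%. Txnip, a brake on glucose uptake, had medians of 1117 and 662 CPM without and with dmPGE2 in irradiated HSC at 1 h, a change of -0.82 (SE 0.15), and its relative Arrdc4 changed by -0.73 (SE 0.12). With radiation Txnip changed by -0.53 at 1 h and by -1.05 at 24 h. The dmPGE2 values at 24 h were 0.39 for Txnip (adjusted p = 0.0464) and 0.66 for Arrdc4, a contrast that shares its irradiated vehicle libraries with the radiation contrast. Both genes were highest in dmPGE2 libraries 5, 6 and 7. Txnip was there at 1531, 1398 and 1531 CPM, against 652 to 1049 in the other dmPGE2 libraries of 24 h. Arrdc4 was at 154, 189 and 180 CPM against 117 to 148. None of these lists was tested as a set.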

How the data were processed

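RNA of sorted HSC was copied with SMART-Seq v4 and made into Nextera XT libraries, per the labels' protocols; this chemistry marks no strand and carries no molecular tags, so counts are of reads. The submitters' processing notes name STAR 2.5.2b, featureCounts, Subread 1.5.1 and the mm10 build. What was deposited is 1 table of raw counts, whole numbers per gene and library (54 libraries), with exon length per gene, per the file headers. Column names were mapped to groups and not to single samples; names of 24 h columns state no radiation and others no time, so that mapping rests partly on the number of samples per group. The 15 unirradiated vehicle columns were pooled.

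Counts were tested in R 4.3.3 with edgeR 4.0.16 (filterByExpr with a count minimum of 10, TMM, robust quasi-likelihood fit of 6 group means, 48 residual degrees of freedom, common dispersion 0.121), with Benjamini-Hochberg adjustment over 14320 genes and a threshold of 0.05. The script was tested on simulated data. Members passing in any comparison are described with their ranges, and of the neighbouring lists the 5 called genes at each end of the log2 fold changes in the dmPGE2 (irradiated) and radiation comparisons are named. Alternatives were DESeq2 1.42.0, its size factors, no filter, only the groups compared, a block, a threshold of 0.01 and sex at 24 h; baseline subsets and left-out libraries were added after seeing the data. Members and lists were chosen with earlier results of these data known. Whether tags pair the libraries depends on the genes used: over all tested genes same-tag correlations did not all exceed 0.1, and over genes above 5 CPM those between the 1 h treatment groups did. The fit without a block, as planned, is reported, with calls the block adds at 1 h beside it.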

Additional observations from a re-analysis of the deposited data

Results flagged for a closer look

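Of 175 combinations of a member and a group of 7 or 8 libraries, 17 held a library far from the rest by Dixon's criterion, where chance flags about 1 in 20. Library 3 of the irradiated vehicle 1 h group stood apart in Pfkl (314 CPM, lowest, next 401), Tpi1 (384 CPM, lowest, next 555), Gapdh (702 CPM, lowest, next 846), Pkm (751 CPM, lowest, next 1019), Egln3 (82.3 CPM, highest, next 21.4) and Bnip3l (241 CPM, highest, next 186). Library 5 of the irradiated dmPGE2 24 h group stood apart in Slc2a3 (467 CPM, highest, next 278) and P4ha1 (33.2 CPM, lowest, next 48.5). Library 7 of the irradiated vehicle 24 h group stood apart in Hk2 (48.5 CPM, highest, next 34.3). Library 3 of the irradiated vehicle 24 h group stood apart in Tpi1 (488 CPM, lowest, next 548). Library 7 of the unirradiated dmPGE2 1 h group stood apart in Pgam1 (58.3 CPM, lowest, next 70.6). Library 4 of the irradiated vehicle 1 h group stood apart in Ldha (2322 CPM, highest, next 1835). Library 5 of the unirradiated dmPGE2 1 h group stood apart in Ldhb (140 CPM, lowest, next 178). Library 6 of the unirradiated dmPGE2 1 h group stood apart in Slc2a1 (184 CPM, highest, next 145). Library 4 of the irradiated vehicle 24 h group stood apart in Slc16a1 (247 CPM, highest, next 173). Library 6 of the irradiated dmPGE2 1 h group stood apart in Pdk2 (27.9 CPM, lowest, next 55.2). Library 8 of the irradiated dmPGE2 24 h group stood apart in Vegfa (4.85 CPM, lowest, next 9.05).

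The dmPGE2 response differed with radiation at 1 h, by the interaction of the edgeR fit, in Vegfa (-1.21), Cited2 (-0.71) and Hif1a (-0.44, on the log2 scale). Between 24 h and 1 h the log2 response differed, by the same kind of test, in 16 members: Hk2 -0.90, Pfkp -0.35, Pfkfb3 1.64, Gapdh -0.32, Pgk1 -0.40, Pgam1 -0.36, Ldha -0.33, Ldhb 0.44, Slc2a1 0.71, Slc2a3 -0.59, Pdk2 0.78, Pdk3 -0.44, Egln3 -1.86, Vegfa -1.55, Bnip3 0.53, Cited2 2.68.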

How the results depend on the processing

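Across alternatives, counts of members called stayed within 1.5 times the reported ones except as follows. At 24 h dmPGE2 called 5 members without libraries 5, 6 and 7 and 4 without 3, 5, 6 and 7 (10 reported), and Pfkfb3 then had -0.11. Over all genes tested the numbers called were 1123 and 854 (3421 reported). The 24 h minus 1 h difference called 9 and 7 members under the same omissions (16 reported), with Pfkfb3 at -0.52 and -0.92. It called 10 with only the groups compared and 7 at a threshold of 0.01. Over all genes tested these settings called 2401, 2318, 2910 and 2122 in that order (3641 reported). Radiation with vehicle at 1 h called 14 with only the groups compared and 5 with baseline columns S42 to S70 only (8 reported). Over all genes tested these fits called 2868 and 1244 (2285 reported). The interaction called 1 member with those columns (3 reported) and 288 of all genes (426 reported). Radiation under dmPGE2 called 0 members at 0.01 (1 reported) and 39 of all genes (54 reported). These alternatives differ from the reported fit in the libraries used, the estimate of spread or the threshold. Leaving libraries out also moved fold changes, as the Pfkfb3 values show. Why the counts moved was not tested. DESeq2 size factors moved the median of all genes by at most 0.01. With tags as a replicate block, members called were 6 (dmPGE2, irradiated, 1 h), 13 (24 h), 11 (unirradiated), 12 (radiation, 1 h), 3 (interaction), 17 (24 h minus 1 h) and 1 (radiation under dmPGE2). Over all genes tested the block called 2686, 4296, 1956, 2811, 624, 4544 and 74 in the same order. The reported fit called 2121, 3421, 1589, 2285, 426, 3641 and 54. Of calls reported, Pfkfb3 in the 24 h minus 1 h difference was lost with the block (0.54). At 24 h the block added Hk1 (0.29), Gapdh (-0.22) and Epas1 (1.16), and in the 24 h minus 1 h difference Hk1 (0.32) and Slc16a1 (-0.44). Radiation at 24 h could not be fitted with the block, since its 2 groups share no tag. Same-tag correlations of deviations were 0.08 to 0.35 between the irradiated 1 h groups over all tested genes and 0.20 to 0.64 over the 10667 genes above 5 CPM; at 24 h they were 0.00 to 0.08 and 0.01 to 0.19, so the pairing verdict depends on the genes used. Depth limits Epas1 and Ankrd37.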
